A study of Mus musculus with 6 samples.

Results

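The 10 genes described here encode carriers that move amino acids across the plasma membrane of regulatory T (Treg) cells. They were chosen by name, as Slc7a1, Slc7a3, Slc7a5, Slc7a6, Slc7a11, Slc3a2, Slc1a4, Slc1a5, Slc38a1 and Slc38a2, and all 10 were found among the 17759 genes listed in at least 1 of 6 RNA-seq libraries. The mice were C57BL/6 and aged 8 weeks, and every group carried Foxp3Cre, which acts in cells that express the Treg factor Foxp3. The knockout (KO) mice were MondoAfl/flFoxp3Cre, with the floxed glucose-responsive factor MondoA (gene Mlxip), and the wild-type (WT) mice were MondoA+/+Foxp3Cre. Each genotype gave 3 cell states with 1 library each. Stimulated nTreg cells (freshly sorted Treg cells put in culture) had 48 h on plates coated with anti-CD3 (5 μg/ml), in medium with IL-2 at 100 U/ml and anti-CD28 at 2 μg/ml. Induced Treg (iTreg) cells were made in 4 days of polarization from naive CD4+ T cells sorted as negative for YFP, so Cre could act in them only once Foxp3 was switched on in culture. Resting nTreg cells were sorted from spleen and lymph nodes as CD4+CD25hiYFP+. Nothing in the labels says whether animals were pooled or whether libraries came from separate animals, so p-values measure only the spread between these samples. With 1 library a group, that spread is the variation of the genotype difference between states, with any technical variation in it. It enters the p-values of state effects and of the genotype effect alike.

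T cells that leave rest import amino acids for growth, and they raise several carriers to do so. Slc3a2 encodes the CD98 heavy chain, which brings light chains of the SLC7 family to the cell surface: the leucine carrier LAT1 (Slc7a5), the exchanger y+LAT2 (Slc7a6) and the cystine and glutamate exchanger xCT (Slc7a11). Slc7a1 and Slc7a3 encode cationic carriers for arginine and lysine that need no heavy chain. Slc1a5 (ASCT2) and its paralog Slc1a4 (ASCT1) carry small neutral amino acids, glutamine being a main substrate of ASCT2, and Slc38a1 and Slc38a2 encode sodium-coupled carriers of glutamine and alanine. The transcription factor ATF4, made when amino acids run short, is known to activate Slc7a11 and several others of these genes, and MYC is known to drive transporter genes in activated T cells.

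Promoter sequences from RefSeq (GRCm38.p6, 250 bases before to 50 after a transcription start) were at hand for 6 of the 10 genes, namely Slc7a1, Slc7a6, Slc7a11, Slc3a2, Slc1a4 and Slc38a2, as 8 entries. They were searched on both strands for the core of the amino acid response element, TGATGNAA, which ATF4 is known to bind, and for the E-box CACGTG, which MYC binds and from which the MondoA element is built. The first was found in 2 of the 8 entries, against 3.97% of all 32851 promoters, and the E-box in 0 of 8, against 7.15%. With no E-box match, no match of one motif overlapped the other. The stretches that hold the ATF4 core are shown because they are the 2 with a match. Capitals mark the motif in either orientation. The stretch of Slc7a11 ends at the start site (chr3:50443614-50443713, minus strand) and that of Slc1a4 runs 10 bases past it (chr11:20332704-20332813, minus strand).
Slc7a11: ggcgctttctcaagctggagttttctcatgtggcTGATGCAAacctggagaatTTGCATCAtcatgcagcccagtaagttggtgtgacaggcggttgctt
Slc1a4: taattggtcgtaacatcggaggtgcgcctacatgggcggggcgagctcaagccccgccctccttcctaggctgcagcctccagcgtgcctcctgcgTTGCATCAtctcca
Slc7a11 holds the core in both orientations, at bases -66 to -59 and -47 to -40 from the start site, and Slc1a4 holds it across the start site, at -4 to 4, with no base numbered 0. A match is a stretch of letters and not a shown binding site.

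The libraries held 9760285 to 10185664 expected counts, and the Treg marker list (Foxp3, Il2ra, Ctla4, Ikzf2, Cd4, Cd3e and Tnfrsf18) had counts for 7 of 7 genes in every library. Its summed level was 6047 and 6115 CPM (counts scaled to a common library size with TMM factors) in KO and WT stimulated cells, 4607 and 4858 in iTreg cells and 4520 and 4604 in resting cells. Ikzf2, which marks Treg cells of thymic origin, stood at 13.3 and 34.1 CPM in KO and WT iTreg cells, against 554 and 505 in resting cells. The MondoA target Txnip was lower in KO cells of every state, with log2 folds from -2.52 to -1.89 and a shared genotype effect of -2.15 (standard error, SE, 0.185, edgeR adjusted p = 0.00171). The folds of Mlxip itself ran from -1.24 to -0.40 (-0.72 in iTreg cells with the trend in length described below removed; shared effect -0.82, SE 0.182, adjusted p = 0.239), and which exons are floxed is not stated in the labels. Markers of B cells summed to 24.1 to 129 CPM, of myeloid cells to 34.3 to 140, of CD8 T cells to 22.9 to 183, of NK cells to 0.603 to 22.8 and of erythroid cells to 0.306 to 47.5. In iTreg cells the 2 CD8 markers summed to 183 CPM in KO and 99.7 in WT cells, the 6 B cell markers to 60.7 and 24.1, the 7 myeloid markers to 52.8 and 34.3 and the 3 NK markers to 22.8 and 11.9. Of these, Lyz2, Csf1r, Adgre1 and Ncr1 were at 0 counts in KO iTreg cells, and Csf1r, Fcer1g, Klrb1c and Ncr1 in WT iTreg cells. Their part in the iTreg results was not tested. The KO iTreg library stands apart in another way: its folds over WT fell with transcript length, the fitted trend having a median of 0.49 on the log2 scale over the shortest 10% of genes and -0.56 over the longest 10%. In the other 2 states the same 2 values lay between -0.11 and 0.07. The KO over WT iTreg folds of the 10 genes, and of the other genes named for a difference there, are therefore also given with that trend removed.

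By level per length (deposited FPKM), Slc1a5 was the highest of the 10 genes in every library, at 126 and 173 FPKM in KO and WT stimulated cells, 101 and 227 in iTreg cells and 74.6 and 72.4 in resting cells. Slc7a3 and Slc1a4 were the lowest pair everywhere, between 0.26 and 7.22 FPKM. The other 7 lay between 7.52 and 143 FPKM, and they did not keep their order. In resting cells Slc3a2, Slc38a2, Slc7a11 and Slc38a1 followed Slc1a5 in both genotypes, while Slc7a6, Slc7a1 and Slc7a5 lay close together, at 11.7, 7.55 and 7.52 FPKM in KO and 12.7, 9.50 and 13.7 FPKM in WT cells, and stood in a different order in each. In stimulated cells Slc7a11 came next after Slc1a5, at 118 and 110 FPKM in KO and WT cells, and Slc7a5 stood beside the heavy chain gene Slc3a2, at 86.1 and 84.9 FPKM in KO and 65.2 and 78.8 FPKM in WT cells. With 1 library a group, neighbours in this order have no measured spread. Together the 10 genes held 0.296% and 0.292% of all counts in KO and WT stimulated cells, 0.241% and 0.358% in iTreg cells and 0.118% and 0.125% in resting cells.

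**Figure D1:**
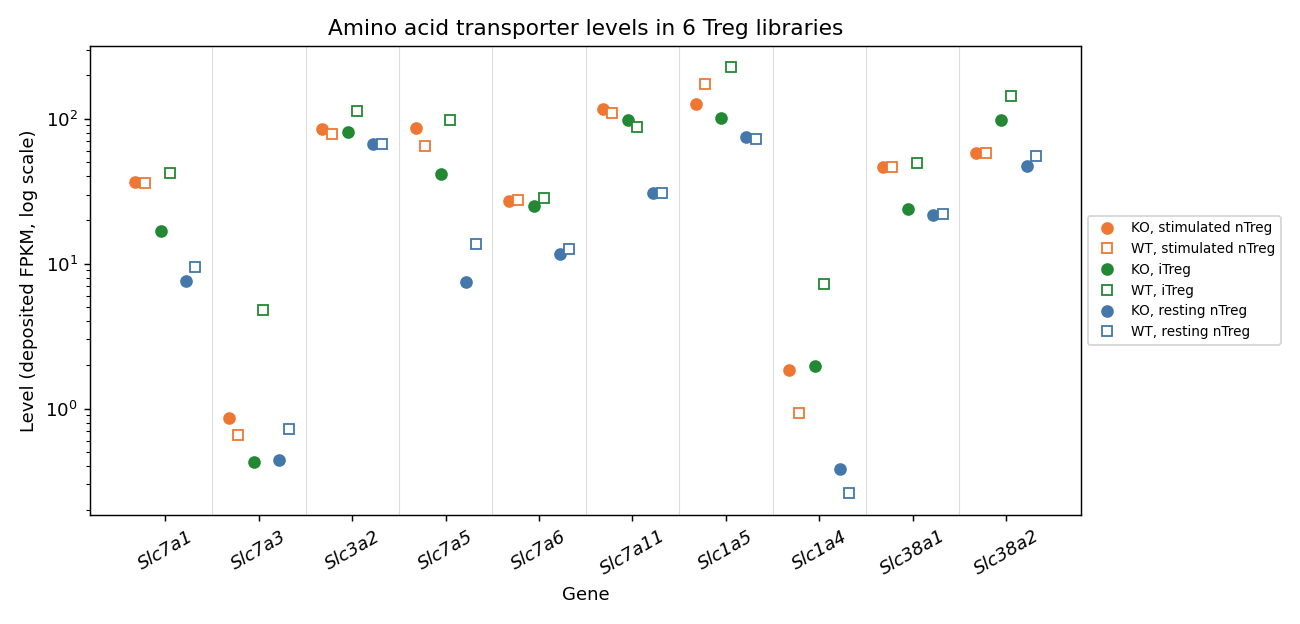
Deposited FPKM (log axis) of each transporter gene in the 6 libraries, with filled circles for KO, open squares for WT and colour for the cell state. Slc1a5 is the highest gene in each library, and Slc7a3 and Slc1a4 are the lowest. On this scale the open green square (WT iTreg) lies at least 2-fold above the filled one for Slc7a1, Slc7a3, Slc7a5, Slc1a5, Slc1a4 and Slc38a1. By CPM, on which libraries are compared, Slc38a1 is just short of 2-fold (log2 fold of KO over WT -0.99).

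The effect of stimulation was tested over both genotypes. Of the 10 genes, all of which passed the filter on low counts, 7 rose in stimulated against resting nTreg cells, 0 fell and 3 did not pass, with a median log2 fold of 1.21 against -0.005 for all 12848 genes tested. Over all genes 24.1% rose and 22.3% fell. In iTreg against resting nTreg cells 9 rose, 0 fell and 1 did not pass, with a median of 1.48 against -0.01 for all genes, of which 23.9% rose and 23.8% fell. Both comparisons use the same 2 resting libraries. The iTreg cells came from naive CD4+ T cells, so the iTreg comparison also sets cells of different origin side by side. Between iTreg and stimulated cells 1 of the 10 rose and 9 did not pass, with a median of 0.01 against -0.05, while 6.81% of all genes rose and 7.62% fell. In bulk RNA a change in the share of cells and a change in RNA per cell cannot be told apart.

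The shared genotype effect was tested with the cell state as covariate, and 0 of the 10 genes passed in edgeR's quasi-likelihood test, against 22 of 12848 genes or 0.171%. At an unadjusted p under 0.05 there was 1 of the 10, and 1019 of all genes, and DESeq2 also called 0 of the 10. The fold was below 0 for 9 of the 10, with a median of -0.33 against 0.02 for all genes. Slc7a3 had the lowest value (-1.38, SE 0.638, adjusted p = 0.617), then Slc7a5 (-0.54, SE 0.281, adjusted p = 0.619), Slc7a1 (-0.52, SE 0.239, adjusted p = 0.617) and Slc1a5 (-0.51, SE 0.215, adjusted p = 0.617). With 1 library of a state left out, the other is fitted by its own state term. Leaving out the KO or the WT library of a state thus rests on the same 4 libraries, and the 2 fits are not separate checks. The same holds below for a state effect when the library left out belongs to the third state. Without a stimulated library the genotype effect was -1.04 for Slc7a5 and -2.28 for Slc7a3, both past the threshold. Without a resting library Slc7a3 was at -1.67 or -1.65, also past it. Without an iTreg library Slc7a3 was at -0.14 or -0.15 and Slc7a5 at -0.17, and neither passed. This model counts a genotype difference that is present in only 1 state as error, and the values by state follow.

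Within a state there is 1 library for each genotype, so no test was made and intervals are 95% counting intervals. Genes were counted at a 2-fold difference with at least 50 counts in the higher library. In iTreg cells 5 of 10 transporter genes lay at least 2-fold lower in KO cells (Slc7a3, Slc1a4, Slc7a1, Slc7a5 and Slc1a5) and 0 lay 2-fold higher, while 5.25% of 10214 genes were 2-fold lower and 2.65% 2-fold higher. Their median log2 fold was -1.05, against 0.06 for all genes compared. With the length trend removed 4 of 10 were 2-fold lower, Slc1a4, Slc7a3, Slc7a5 and Slc1a5, against 3.76% of genes, and the median was -0.64. In stimulated cells 0 of the 9 genes with enough counts reached 2-fold, where 0.513% of genes were 2-fold lower and 0.542% higher. Slc1a4 was just short of it at 0.99 with a prior count of 2, while its plain CPM ratio was 2.03. Of the 10 folds 9 were above 0, with a median of 0.11 against 0.03 for all genes compared. The intervals of Slc7a1, Slc7a3, Slc7a6, Slc38a1 and Slc38a2 held 0. In resting cells 0 of 8 reached 2-fold, where 1.45% of genes were lower and 1.41% higher. There 8 of the 10 folds were below 0, with a median of -0.11 against 0.01 for all genes compared. Of those below 0, the intervals of Slc7a3, Slc7a6, Slc7a11, Slc3a2 and Slc38a1 held 0. The share of all genes on either side of 0 was not counted.

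**Figure D2:**
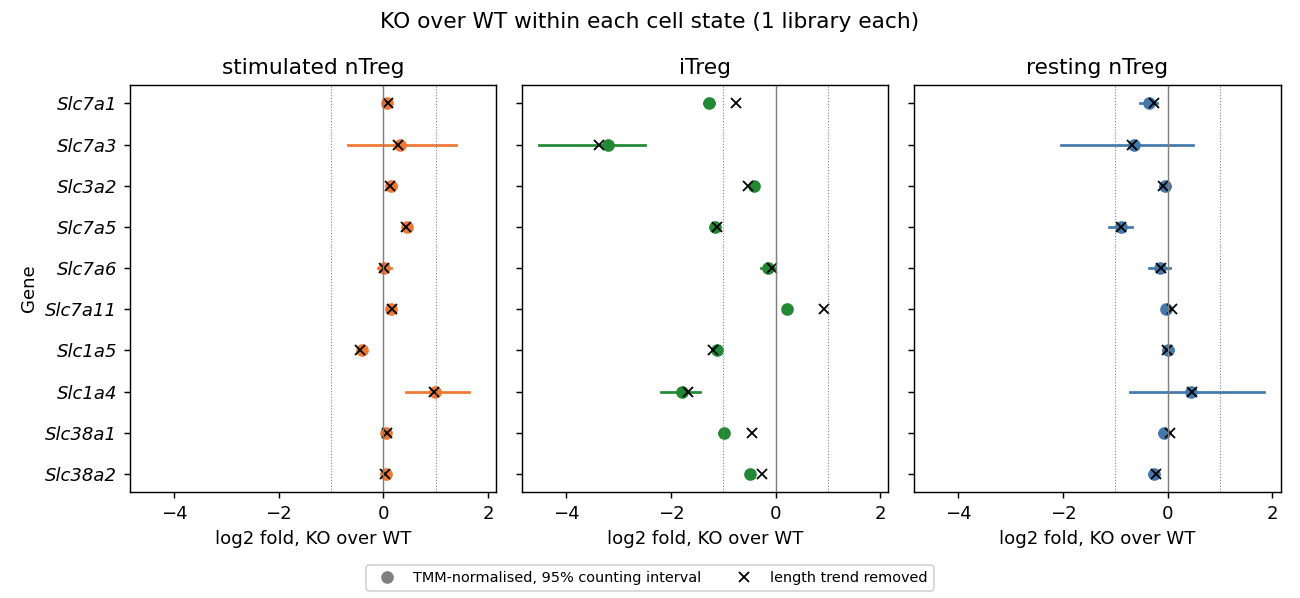
Log2 fold of KO over WT (x axis) for each gene in the 3 cell states, with 95% counting intervals, and the same fold with the trend with transcript length removed (crosses). Dotted lines mark a 2-fold difference; in iTreg cells 9 of 10 circles lie left of 0, and the crosses of Slc7a1, Slc38a1 and Slc7a11 lie well to the right of their circles.

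Among the cationic carriers, Slc7a1 stood at 278 and 264 CPM in KO and WT stimulated cells, at 127 and 307 CPM in iTreg cells and at 51.9 and 66.9 CPM in resting cells. Of the 4 activated or induced libraries the KO iTreg one was the lowest. The gene rose with stimulation by 2.22 on the log2 scale (SE 0.30, edgeR adjusted p = 0.000396) and in iTreg over resting cells by 1.79 (0.298, adjusted p = 0.00115). The KO over WT log2 fold was 0.08 (-0.00 to 0.16) in stimulated, -1.28 (-1.38 to -1.18) in iTreg and -0.37 (-0.53 to -0.20) in resting cells. Slc7a1 has a long transcript, and removing the length trend gave -0.75 in iTreg cells, no longer 2-fold. KO iTreg cells stood 2.44-fold over KO resting cells, and WT iTreg cells 4.59-fold over WT resting cells.

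Slc7a3, its low-level paralog, had 20 and 16 counts in KO and WT stimulated cells, 10 and 108 counts in iTreg cells and 10 and 16 counts in resting cells. Only the WT iTreg library stood out. In iTreg cells the level was 1.02 CPM in KO and 11.02 CPM in WT, a log2 fold of -3.20 (-4.53 to -2.49), or -3.37 with the length trend removed, and 0.0881% of genes had a lower fold there. Neither its stimulation effect (0.65, SE 0.811, adjusted p = 0.538) nor its iTreg over resting effect (1.93, SE 0.746, adjusted p = 0.0575) passed. The iTreg over resting effect passed without the KO resting library (2.31), without a stimulated library (1.80) and without the KO iTreg library (3.04). The fits without the KO or the WT stimulated library rest on the same 4 libraries. Without the WT iTreg library the effect was at -0.22. The annotated span of Slc7a3 overlaps that of Snx12, and without strand information reads of the 2 genes may be shared. Snx12 had 587 and 453 counts in KO and WT iTreg cells, the opposite order.

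The heavy chain gene Slc3a2 varied least across libraries. It was at 228 and 206 CPM in KO and WT stimulated cells, 219 and 292 CPM in iTreg cells and 164 and 171 CPM in resting cells. Its stimulation effect did not pass (0.37, SE 0.201, adjusted p = 0.159). It passed, again at 0.37, in the fits without an iTreg library, which both rest on the 4 resting and stimulated libraries. In iTreg over resting cells Slc3a2 rose by 0.60 (0.201, adjusted p = 0.0343). That call was lost, again at 0.60, in the fits without a stimulated library, which both rest on the 4 resting and iTreg libraries. It was also lost without the KO resting (0.123, log2 fold 0.67), WT resting (0.191, 0.56) or WT iTreg library (0.123, 0.37). KO over WT was 0.15 (0.06 to 0.23) in stimulated, -0.41 (-0.50 to -0.33) in iTreg and -0.06 (-0.16 to 0.04) in resting cells, and -0.52 in iTreg cells once the length trend was removed.

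Slc7a5, the LAT1 light chain, showed the widest response to stimulation of the 10 genes by its log2 fold. It reached 317 and 233 CPM in KO and WT stimulated cells and 154 and 346 CPM in iTreg cells, against 25.2 and 47.1 CPM in resting cells. It rose with stimulation by 3.03 on the log2 scale (SE 0.364, adjusted p = 0.000199) and in iTreg over resting cells by 2.76 (0.357, adjusted p = 0.000274). The genotype difference had a different sign in different states: KO over WT was 0.45 (0.37 to 0.52) in stimulated cells, -1.17 (-1.26 to -1.08) in iTreg cells and -0.90 (-1.12 to -0.68) in resting cells. Removing the length trend gave -1.12 in iTreg cells. Stimulated cells thus stood 12.6-fold over resting cells in KO and 4.95-fold in WT, and the KO minus WT difference in this log2 response was 1.34 (1.11 to 1.57, counting error only). In iTreg over resting cells the folds were 6.10 in KO and 7.34 in WT cells.

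Slc7a6, the second light chain, was at 106 and 104 CPM in KO and WT stimulated cells, 97.0 and 107 CPM in iTreg cells and 41.6 and 46.4 CPM in resting cells. The 2 genotypes lay close together in every state, and all 4 activated or induced libraries lay above both resting ones. It rose with stimulation by 1.25 (SE 0.178, adjusted p = 0.000525) and in iTreg over resting cells by 1.21 (0.178, adjusted p = 0.00058). The KO over WT log2 folds were 0.02 (-0.11 to 0.15), -0.14 (-0.27 to -0.01) and -0.16 (-0.35 to 0.03) in stimulated, iTreg and resting cells, and the iTreg fold was -0.059 once the length trend was removed.

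Slc7a11, the cystine exchanger, had the largest number of counts of the 10 genes in every library, and its transcript, of 9227 bases, is the longest. It was at 1144 and 1041 CPM in KO and WT stimulated cells, 951 and 818 CPM in iTreg cells and 271 and 279 CPM in resting cells. It rose with stimulation by 1.98 on the log2 scale (SE 0.206, adjusted p = 9.18e-05) and in iTreg over resting cells by 1.68 (0.205, adjusted p = 0.000198). In KO over WT iTreg cells Slc7a11 was the 1 transporter gene of the 10 above 0, at 0.22 (0.17 to 0.26), and at 0.92 with the length trend removed. The stimulated and resting values were 0.14 (0.10 to 0.18) and -0.04 (-0.12 to 0.03).

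Set beside their heavy chain on the FPKM scale, the light chain Slc7a11 stood above Slc7a5 in every library except WT iTreg. The ratio of Slc7a5 to Slc3a2 was 1.01 and 0.826 in KO and WT stimulated cells, 0.513 and 0.866 in iTreg cells and 0.113 and 0.203 in resting cells. For Slc7a11 to Slc3a2 it was 1.39 and 1.40 in stimulated, 1.20 and 0.775 in iTreg and 0.458 and 0.454 in resting cells. Slc7a11 thus exceeded Slc7a5 in KO iTreg cells, at 97.8 against 41.8 FPKM, as it did in the resting and stimulated libraries. In WT iTreg cells it was slightly lower, at 87.9 against 98.2 FPKM, in a single library with no measured spread. The sum of the 3 light chains over the heavy chain was 2.72 and 2.57 in stimulated, 2.02 and 1.89 in iTreg and 0.746 and 0.844 in resting cells. These are ratios of mRNA levels, and the length trend of the KO iTreg library was not taken out of them.

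The neutral carrier gene Slc1a5 was at 364 and 484 CPM in KO and WT stimulated cells, 290 and 626 CPM in iTreg cells and 196 and 195 CPM in resting cells. Resting genotypes were level with each other, and in both other states KO was the lower. It rose with stimulation by 1.07 (SE 0.263, adjusted p = 0.00907) and in iTreg over resting cells by 1.13 (0.266, adjusted p = 0.00715). Leaving out the WT resting library ended both calls, at 0.72 (adjusted p = 0.0862) and 0.74 (adjusted p = 0.0801). Its KO over WT log2 folds were -0.41 (-0.48 to -0.35) in stimulated, -1.11 (-1.18 to -1.05) in iTreg and 0.00 (-0.09 to 0.09) in resting cells, and -1.19 in iTreg cells with the length trend removed. Slc1a5 was the 1 gene of the 10 with a fold below 0 in stimulated cells.

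Slc1a4, the scarcer paralog, had 74 and 37 counts in KO and WT stimulated cells, 79 and 279 counts in iTreg cells and 15 and 10 counts in resting cells. WT iTreg cells stood 28.6-fold over WT resting cells and KO iTreg cells 5.67-fold over KO resting cells. The gene rose in iTreg over resting cells by 3.81 on the log2 scale (SE 0.662, adjusted p = 0.00145) and with stimulation by 2.22 (0.678, adjusted p = 0.0238). The stimulation call was lost without the KO stimulated library (1.04, adjusted p = 0.162) and in limma on log2(FPKM + 1) (0.83, adjusted p = 0.142). Its KO over WT log2 folds were 0.99 (0.44 to 1.63) in stimulated, -1.79 (-2.19 to -1.45) in iTreg and 0.45 (-0.73 to 1.84) in resting cells, and removing the length trend gave -1.68 in iTreg cells. Its iTreg over stimulated effect did not pass (1.59, SE 0.577, adjusted p = 0.0984). It passed without a resting library (1.55 and 1.51), where both fits rest on the same 4 libraries. It also passed without the KO stimulated (2.63) or the KO iTreg library (2.84). It was at 0.18 without the WT iTreg library and at 0.52 without the WT stimulated library, and passed in neither fit.

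The sodium-coupled carrier Slc38a1 was at 354 and 342 CPM in KO and WT stimulated cells, 181 and 359 CPM in iTreg cells and 151 and 158 CPM in resting cells. KO iTreg cells stood at 1.20-fold over KO resting nTreg cells, and WT iTreg cells at 2.27-fold over WT resting nTreg cells. It rose with stimulation by 1.16 (SE 0.262, adjusted p = 0.00585), a call lost without the KO stimulated library (0.86, adjusted p = 0.0598). In iTreg over resting cells it rose by 0.75 (0.262, adjusted p = 0.0409), which was lost without the WT resting (0.54, adjusted p = 0.225) or WT iTreg library (0.23, adjusted p = 0.319), and in limma on log2(FPKM + 1) (0.63, adjusted p = 0.0786). Its KO over WT log2 fold in iTreg cells was -0.99 (-1.07 to -0.91), just short of 2-fold, and -0.45 with the length trend removed. The stimulated and resting values were 0.05 (-0.02 to 0.12) and -0.06 (-0.17 to 0.04).

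Slc38a2 was the 1 gene that rose in iTreg over stimulated cells (1.03, SE 0.206, adjusted p = 0.0102), a call lost without the WT stimulated library (0.81, adjusted p = 0.183). It was at 475 and 667 CPM in KO and WT iTreg cells, 282 and 273 CPM in stimulated cells and 210 and 254 CPM in resting cells. Both iTreg libraries lay above all 4 others. Over resting cells it rose in iTreg cells by 1.29 (0.207, adjusted p = 0.000946), while stimulation did not pass (0.26, 0.204, adjusted p = 0.322). Its KO over WT log2 folds were 0.05 (-0.03 to 0.12) in stimulated, -0.49 (-0.54 to -0.43) in iTreg and -0.27 (-0.35 to -0.19) in resting cells, and -0.26 in iTreg cells with the length trend removed.

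**Figure D3:**
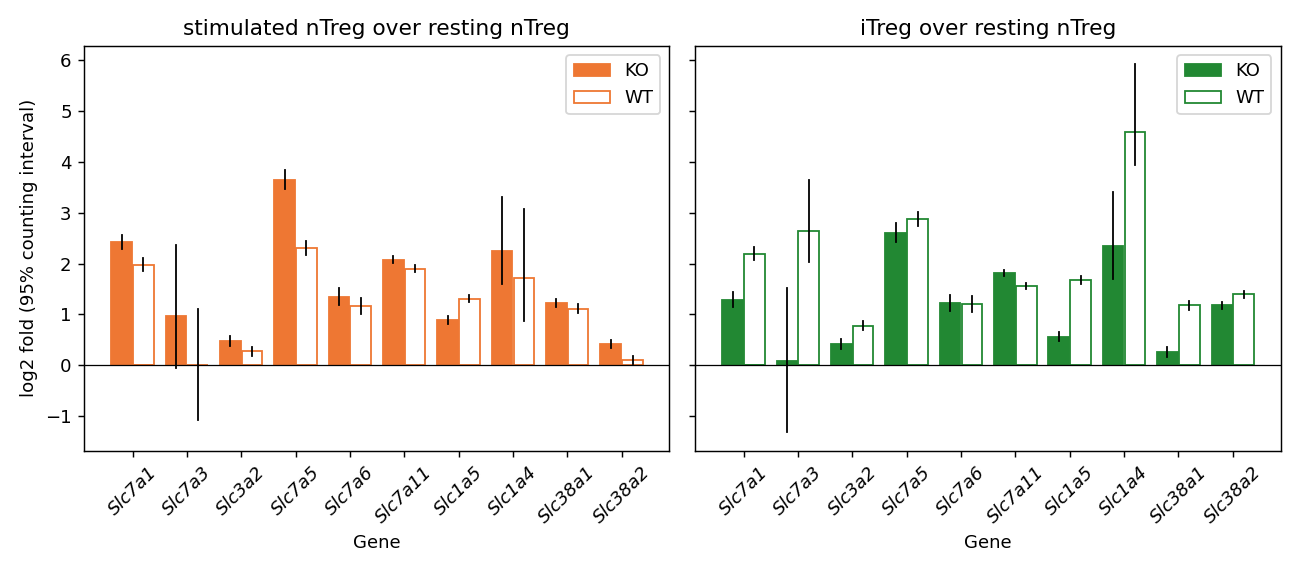
Log2 fold of stimulated over resting nTreg cells and of iTreg over resting nTreg cells (y axis) for each gene, with filled bars for KO, open bars for WT and 95% counting intervals. After stimulation the filled bar is the taller for 9 of 10 genes and Slc1a5 is the exception; in iTreg cells the open bar is the taller for 8, with Slc7a6 level and Slc7a11 the other way.

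Log2 folds over resting nTreg cells can be set side by side within each genotype, with the resting library shared. The iTreg cells came from naive CD4+ T cells, so their fold over resting nTreg cells also compares cells of different origin. There is no library of naive cells. Intervals here cover counting error only. In iTreg over resting cells the KO minus WT difference was below 0 for 8 of the 10 genes, each with an interval excluding 0. No share over all genes was taken for this count, or for the stimulated count below, so neither has a background. Such intervals are narrow for any gene with many counts. It was -2.56 (-4.0 to -1.11) for Slc7a3, -2.23 (-3.42 to -1.05) for Slc1a4, -1.11 (-1.22 to -1.0) for Slc1a5, -0.92 (-1.05 to -0.79) for Slc38a1 and -0.91 (-1.10 to -0.72) for Slc7a1. The last 2 were -0.51 and -0.50 with the length trend removed, and the first 3 were -2.66, -2.14 and -1.13. The other 3 below 0 were Slc3a2 at -0.35 (-0.48 to -0.23), Slc7a5 at -0.27 (-0.51 to -0.04) and Slc38a2 at -0.22 (-0.32 to -0.12), and removing the trend gave -0.40, -0.22 and -0.033. An interval as wide as the one given, centred on the value with the trend removed, would hold 0 for Slc38a2 and for Slc7a5. In stimulated over resting cells the difference was above 0 for 9 of the 10, and Slc7a5 was followed among the well-counted genes by Slc7a1 at 0.44 (0.26 to 0.62) and Slc38a2 at 0.32 (0.20 to 0.43), while Slc1a5 was at -0.42 (-0.53 to -0.31). None of these differences has a replicate check.

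**Figure D4:**
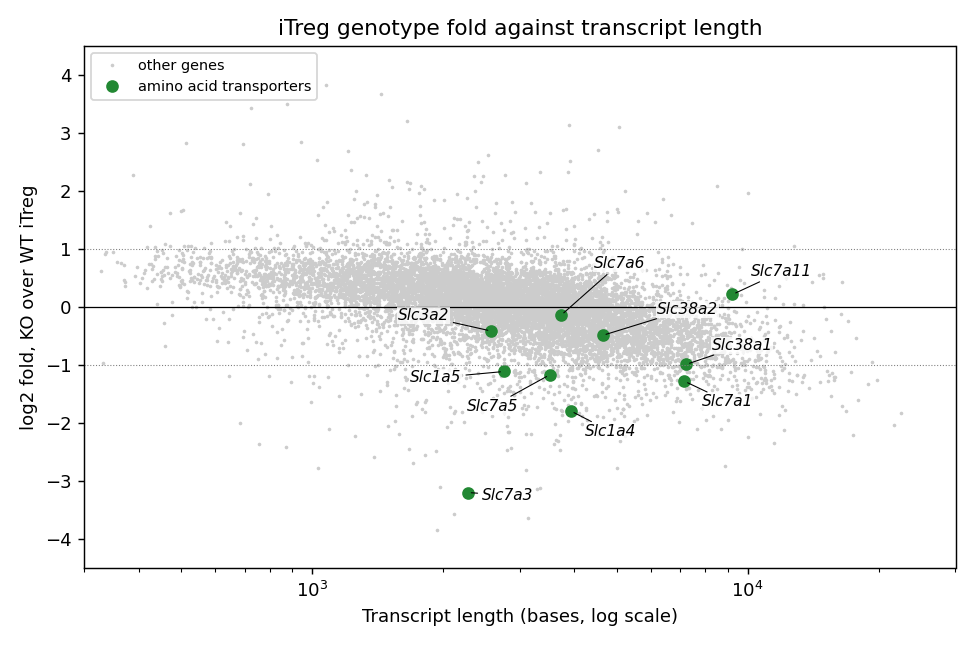
Log2 fold of KO over WT iTreg cells (y axis) against transcript length in bases (log x axis) for 10214 genes with at least 50 counts in the higher library, of which 23 lie outside the axes. The grey cloud slopes down with length. Slc7a11, with the longest transcript of the 10, lies above the fitted trend, which is not drawn. Slc7a3, Slc1a4, Slc7a5 and Slc1a5 lie at least 2-fold below the trend, as do 384 genes in all, while 218 genes lie at least 2-fold above it.

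Of the factors known to act on these genes, Myc had KO over WT log2 folds of 0.44 (0.37 to 0.50) in stimulated, 0.41 (0.36 to 0.47) in iTreg and -0.90 (-1.01 to -0.79) in resting cells. In these states Slc7a5 was at 0.45, -1.17 and -0.90 and Slc7a1 at 0.08, -1.28 and -0.37. Slc1a5 was at -0.41, -1.11 and 0.00 and Slc38a1 at 0.05, -0.99 and -0.06, and the other transporter genes are given above. Whether Myc acts on any of them here was not tested. Atf4 was at 0.29 (0.21 to 0.38), -0.24 (-0.33 to -0.16) and 0.18 (0.10 to 0.27) in the same states, and at -0.55 in iTreg cells with the length trend removed. For Myc that value was 0.27. Nfe2l2, the oxidative stress factor NRF2 that also activates Slc7a11, was at -0.13 (-0.36 to 0.09), -0.20 (-0.37 to -0.04) and 0.03 (-0.14 to 0.20), and at -0.34 in iTreg cells once the trend was removed. Mtor, which encodes a growth kinase, was at -0.55 (-0.70 to -0.41) in iTreg cells, and at 0.10 with the length trend removed. None of these 4 passed the test of the shared genotype effect (adjusted p = 0.833 to 0.996).

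By the root mean square distance of log2 CPM profiles over the 6 libraries, each gene centred on its mean, among 8989 genes, the gene most like Slc1a4 was Atf5 (0.363), a stress-responsive relative of ATF4. Atf5 was at 21.8 and 13.7 CPM in KO and WT stimulated cells, 33.2 and 101.5 CPM in iTreg cells and 9.04 and 6.47 CPM in resting cells. The gene most like Slc7a5 was Gen1 (0.185), a Holliday junction resolvase, and the gene most like Slc7a1 was G2e3 (0.103), a ubiquitin ligase. For Slc7a11 it was Ncbp2 (0.0600), a cap-binding protein, for Slc7a6 the cell cycle kinase gene Pkmyt1 (0.0506) and for Slc38a1 the histone gene activator Npat (0.0750). The closest pair among the 10 was Slc1a5 and Slc38a1 (0.250). The distances are descriptions over 6 libraries that share cell state and depth. The length trend of the KO iTreg library was not taken out of these profiles, nor of the Atf5 levels.

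Of 37 further plasma membrane amino acid transporters 28 were listed and 16 were tested. With stimulation 6 rose and 2 fell, where 24.1% of all genes rose and 22.3% fell. In iTreg over resting cells 4 rose and 3 fell, where 23.9% of all genes rose and 23.8% fell. The medians were 0.18 and 0.32. Slc7a10, the Asc-1 light chain and another partner of the heavy chain, was at 0.613 and 0.302 CPM in KO and WT stimulated cells, against 9.42 and 3.88 CPM in resting cells, and fell by 3.82 on the log2 scale (SE 0.498, adjusted p = 0.000481). It had 0 counts in both iTreg libraries, where 3 counts a library is the floor, so the iTreg level was at least 30.7-fold lower than the resting one in KO and at least 12.7-fold lower in WT cells (adjusted p = 0.000104). It was also the 1 of 9 well-counted genes of this list that was 2-fold higher in KO resting cells, at 1.24 (0.73 to 1.85), where 1.41% of all genes were. Slc43a3, an SLC43 family member since found to carry purine nucleobases, was at 86.0 and 78.1 CPM in KO and WT stimulated cells, 148 and 131 CPM in iTreg cells and 11.2 and 8.46 CPM in resting cells, and rose by 3.05 and 3.82 (SEs 0.201 and 0.205, adjusted p = 6.78e-06 and 2.18e-06). Slc6a9, the glycine carrier GLYT1, was at 31.3 and 60.5 CPM in KO and WT iTreg cells, against 0.571 and 0.199 CPM in resting cells, and rose by 6.79 (0.503, adjusted p = 1.08e-05). Those resting levels rest on very few counts, so the size of this fold is loosely set. Slc16a10, a carrier of aromatic amino acids, rose with stimulation by 2.82 (0.288, adjusted p = 8.25e-05) and in iTreg over resting cells by 3.86 (0.289, adjusted p = 1.14e-05). In iTreg cells 1 of 9 well-counted genes of this list was 2-fold lower in KO and 0 were 2-fold higher, where 5.25% of all genes were lower and 2.65% higher. It was the proton-coupled carrier Slc36a4 at -1.18 (-1.92 to -0.57), or -1.43 with the length trend removed, with 2.87 and 6.73 CPM in KO and WT.

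All 10 lysosomal transporters found in the libraries were tested. With stimulation 2 rose and 1 fell and in iTreg over resting cells 2 rose and 2 fell, shares near or under those of all genes (24.1% and 22.3%, 23.9% and 23.8%), with medians of -0.08 and 0.14. Mfsd12, which moves cysteine into lysosomes, rose by 1.44 and 1.56 in these comparisons (SEs 0.362 and 0.36, adjusted p = 0.0102 and 0.00634). Slc38a9, the lysosomal arginine sensor, fell with stimulation by 0.72 on the log2 scale (SE 0.215, adjusted p = 0.0225). Of 13 mitochondrial carriers 11 were tested, of which 5 rose and 2 fell in each of these comparisons, against the same shares of all genes, with medians of 0.09 and 0.43. Slc25a13, the aspartate and glutamate carrier citrin, rose with stimulation by 2.52 (0.264, adjusted p = 9.21e-05). Sfxn1, the mitochondrial serine carrier, rose with stimulation by 1.56 (0.186, adjusted p = 0.000194). Before removal of the length trend, none of the 9 lysosomal and 10 mitochondrial genes with enough counts differed 2-fold between KO and WT iTreg cells. Of all genes 5.25% were 2-fold lower in KO there and 2.65% higher. Slc25a15, of the mitochondrial list, lay just short of it at 29.1 and 14.8 CPM in KO and WT (0.97, 0.68 to 1.28). With the length trend removed it was at 1.003, past 2-fold.

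Of 20 enzymes that use the imported amino acids 16 were tested. With stimulation 7 rose and 4 fell, where 24.1% and 22.3% of all genes did, and in iTreg over resting cells 5 rose and 3 fell, where 23.9% and 23.8% did. Il4i1, a secreted oxidase of phenylalanine, was at 7.05 and 7.04 CPM in KO and WT stimulated cells, against 36.5 and 36.3 CPM in resting cells, and fell by 2.38 on the log2 scale (SE 0.327, adjusted p = 0.000429). In iTreg cells it had 0 and 4 counts in KO and WT, at least 119-fold lower than resting cells in KO by the same floor (adjusted p = 8.16e-06). Bcat1, the cytosolic branched-chain transaminase, rose with stimulation by 4.78 (SE 0.304, adjusted p = 5.66e-06). Of 14 enzyme genes compared in iTreg cells, 2 were 2-fold lower in KO and 1 was higher, where 5.25% of all genes were lower and 2.65% higher. Asns, asparagine synthetase, was at 18.3 and 103 CPM in KO and WT iTreg cells, a log2 fold of -2.48 (-2.73 to -2.26), or -2.73 with the length trend removed, while in stimulated cells it was at 44.6 and 51.4 CPM and in resting cells at 3.04 and 5.57 CPM. Gpt2, the mitochondrial alanine transaminase, was at 3.89 and 20.8 CPM in KO and WT iTreg cells (-2.36, -2.96 to -1.91). Gls2, a glutaminase, was at 11.2 and 3.88 CPM (1.48, 0.98 to 2.10). Removing the trend gave -2.30 and 1.34. None of these lists had a member past the test of the shared genotype effect.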

How the data were processed

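Expected counts and FPKM per gene were deposited by the authors in 1 table per library. Per the file headers, the expected count is an estimated number of reads and FPKM is scaled to transcript length and depth, and a length averaged over transcripts is given beside them. Bowtie2, HISAT and mm9 are named in the submitters' processing notes, and the quantifier, annotation and strandedness are not given in the sources used here. The expected counts, 76.0% of them whole within 0.005, were rounded, genes missing from a library were taken as 0, and symbols were joined from RefSeq GRCm38.p6 (17711 of 17759 identifiers matched).

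Groups came from the labels. The state and genotype effects were tested across all 12848 genes left by filterByExpr in 1 additive model of state and genotype (edgeR 4.0.16 quasi-likelihood test, TMM factors of 0.961 to 1.06, Benjamini-Hochberg threshold 0.05, R 4.3.3), with 2 residual degrees of freedom. The state effects use the KO and WT libraries as the 2 libraries of a state. Standard errors came from the F statistic. The model was tested on simulated data. Within a state, a prior count of 2 was added before log2 folds of CPM were taken. Intervals of ratios are exact conditional (Clopper-Pearson) 95% intervals, and those of KO minus WT differences of folds between states are Wald intervals. Both cover counting error only. The length trend was a lowess fit (span 0.3) of the fold on log2 length. Alternatives used DESeq2 1.42.0, limma 3.58.1 on log2 FPKM, other size factors, no filter, other covariates and each library left out. Python 3.11.15, scipy 1.17.1, statsmodels 0.14.6 and matplotlib 3.10.9 were used elsewhere.

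The members, gene lists and tests were chosen with earlier results of these data known. The 10 members and the factors known to act on them were named. Of each list, up to 4 genes with the largest folds in a comparison could be named, and the text gives some of these. The nearest profile is given for 6 of the 10 members.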

Additional observations from a re-analysis of the deposited data

Results flagged for a closer look

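For 3 of the 10 transporter genes the KO over WT log2 fold lay above 0 in one cell state and below 0 in another, with counting intervals that excluded 0 on both sides. With 1 library a group the difference between states was not tested. For Slc7a5 the fold was 0.45 in stimulated, -1.17 in iTreg and -0.90 in resting cells. For Slc1a4 it was 0.99 in stimulated, -1.79 in iTreg and 0.45 in resting cells, the last resting on 15 and 10 counts. For Slc3a2 it was 0.15 in stimulated, -0.41 in iTreg and -0.059 in resting cells.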

How the results depend on the processing

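All 10 genes kept the sign of their stimulation and iTreg over resting effects under every alternative except Slc7a3, which ran from -0.633 to 1.989 and from -0.2238 to 3.041 as each library was left out. The counts of genes passed ran over the same fits from 3794 to 7575 for stimulation, 4056 to 6541 for iTreg over resting and 1299 to 3154 for iTreg over stimulated cells. For the shared genotype effect 22 genes passed, against 67 with no count filter, 67 in DESeq2, 11 and 12 in limma on log2(FPKM + 1) and log2(FPKM + 0.1), 0 without cell state in the model and 34 to 305 with a library left out. Of the 10 members 0 to 2 passed it with a library left out, where Slc3a2 ran from -0.2361 to 0.04349 and Slc1a4 from -1.089 to 0.8639. In iTreg over stimulated cells 1 member passed, against 2 with no count filter, 2 in DESeq2, 3 in the 4 libraries of the 2 states alone and 1 to 3 with a library left out. There Slc7a6 was at -0.04, against 0.0136 with the length trend removed and 0.002592 in the 4 libraries. Leaving out a library gave ranges of -1.027 to 0.1116 for Slc7a1, -0.7509 to 2.514 for Slc7a3, -0.9719 to 0.5085 for Slc7a5, -0.1242 to 0.03979 for Slc7a6, -0.002732 to 0.4501 for Slc3a2, 0.1767 to 2.844 for Slc1a4, -0.428 to 0.4702 for Slc1a5 and -0.9329 to 0.04292 for Slc38a1. The cause of these changes was not tested. With a prior count of 0.5, 1 member, Slc1a4, was past 2-fold in stimulated cells, where it was at 0.99 with the prior count of 2. No paired analysis was possible because each group has 1 library and the labels give no shared replicate numbers. Slc7a3 and Slc1a4 rest on 10 to 16 counts in resting cells, which limits what their folds can show, and within a state there is no replicate.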
